A study of Mus musculus with 4 samples.

Results

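Hypoxia and glycolysis genes were followed across 4 arrays of cultured mammary fibroblasts. The list holds 33 genes: glucose and lactate transporters, the enzymes of glycolysis, subunits of the hypoxia-inducible transcription factor (HIF), the prolyl hydroxylases that sense oxygen, and genes known as HIF targets. A gene was taken as measured where a probe set of the array was annotated with that gene symbol and no other, and where several were, the brightest on average stood for it. On this rule 32 of the 33 genes were measured, out of 12394 on the array, and Gpi1 was not analysed here. The rule lists the members by name and uses no measured value, but the list was drawn up with earlier results of these data known.

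The cells came from the mammary glands of FVB/N mice aged 9 weeks, were grown in DMEM with serum, and were used at second passage. The 4 groups were PyMT Ets2-null (PyMT;Fsp-cre;Ets2db/loxP), PyMT Ets2-present (PyMT;Ets2db/loxP), normal Ets2-null (Fsp-cre;Ets2db/loxP) and normal Ets2-present (Ets2db/loxP). PyMT is an oncogene whose expression is directed to the epithelium of the gland, although every cell of these mice carries the transgene. Each group was measured on 1 array, so that every difference below lies between 2 arrays and has no error and no p-value. The Ets2db allele is a conventional knockout carried in all 4 groups, so Ets2-present cells had 1 intact copy of Ets2. Cre, driven by the promoter of fibroblast specific protein 1, was present in both Ets2-null groups only, and its effect and that of Ets2 loss cannot be told apart. How many mice gave the RNA of an array, and the oxygen tension of the cultures, are not given in the sources used here.

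Glycolysis splits glucose into pyruvate, and lactate dehydrogenase turns pyruvate into lactate when the mitochondria do not take it up. In well-oxygenated cells the prolyl hydroxylases mark the HIF alpha subunit for destruction. When oxygen is short the subunit is stable, enters the nucleus and binds a short DNA core next to genes for glucose uptake, glycolysis, mitophagy and collagen hydroxylation. Stromal fibroblasts of breast tumors are known for a glycolytic, lactate-exporting metabolism. Several of these genes also respond to other signals, among them growth factors and nutrient stress.

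Values are log2 levels, computed by the authors with RMA, so that a step of 1 is a 2-fold difference. Array medians lay between 5.63 and 5.74, and arrays correlated with r from 0.959 to 0.985 over all probe sets, and the 3 lowest r all involved PyMT Ets2-null cells. As a background, the same differences were taken over the 7796 genes whose mean level reached 4.63, the 40th percentile of all values. Of the 32 members, 30 reached that level and Aldoc and Epas1 did not. Ets2 itself, on 1 probe set, read 11.22 in PyMT Ets2-null, 11.21 in PyMT Ets2-present, 11.89 in normal Ets2-null and 11.86 in normal Ets2-present fibroblasts. In normal and in PyMT cells alike it hardly differed with the Ets2 label. Where that probe set lies relative to the deleted part is not known here, so it checks nothing. By Western blot and by staining for phosphorylated Ets2, the paper reports that the protein was lost in PyMT Ets2-null fibroblasts. All 11 fibroblast markers, such as Col1a1, Col3a1 and Vim, were above 4.63 in every array. All 10 macrophage markers were measured, and their summed linear level was 313 in PyMT Ets2-null, 885 in PyMT Ets2-present, 394 in normal Ets2-null and 400.3 in normal Ets2-present fibroblasts. In the same order 5, 3, 3 and 4 of the 10 lay below 4.63. The summed level of 9 epithelial markers lay between 213 and 385 and that of 6 endothelial markers between 97.4 and 165 in the 4 arrays, with 5 to 7 and 5 to 6 of them below 4.63. Of 6 adipocyte markers 5 were measured, and 3 of these 5 lay below 4.63 in every array. The sum of the 5 was 1135 and 1254 in PyMT Ets2-null and PyMT Ets2-present and 161 and 249 in normal Ets2-null and normal Ets2-present cells. It rests mainly on Fabp4, which read 9.995, 9.96, 6.82 and 7.64 in that order of groups. The fibroblast marker Lum (lumican) read 5.82, 6.73, 11.62 and 9.26 in that order of groups, and was the extreme of the 11. Among Ets2-null cells the PyMT difference of these markers ran from -5.80 (Lum) to 1.01 (Pdgfrb). Its median was 0.20, with 6 markers higher and 5 lower in PyMT cells. The PyMT Ets2-present array, highest in the sum of macrophage markers, is also the one in which most members were lowest. That sum rests mainly on Csf1r (8.12) and Lcp1 (8.04). Adgre1, Csf1r, Msr1, Lcp1 and Tyrobp were highest in that array, and Ptprc, Itgam, Fcer1g, Cd68 and Cd14 in other arrays. The part of other cell types in the differences below was not tested. In such bulk RNA, fewer cells of a type and less RNA per cell cannot be told apart.

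In fibroblasts from PyMT mice a small set of them, Pdk1, Ddit4, Ndrg1, Pfkl and Aldoc, was at least 2-fold higher without Ets2 (5 of 32, beside 5.02% of all kept genes), and 0 were 2-fold lower (beside 7.23%). In normal fibroblasts 0 members were 2-fold higher or lower, beside 2.08% and 1.69% of all kept genes, so that a count of 0 is near the background there. For Pdk1, Ndrg1 and Ddit4 the PyMT Ets2-present array was the low one, at least 2-fold below normal Ets2-present cells. In these genes PyMT Ets2-null cells differed from normal Ets2-null cells by 0.40 (Pdk1), -0.37 (Ndrg1) and 0.46 (Ddit4) on the log2 scale. A dimmer Ndrg1 probe set, also above 4.63, gave -1.84 there. Pfkl was 2-fold below normal Ets2-present cells too, but normal Ets2-null cells (7.38) were nearly as low as PyMT Ets2-present cells (7.08). Its PyMT Ets2-null array lay 1.14 above normal Ets2-null. Aldoc was -0.86 against normal Ets2-present cells, and only its PyMT Ets2-null array (5.87) was above 4.63. The 6 enzymes from triose to lactate differed little, by -0.45 to 0.40 on the log2 scale over the 4 comparisons. Of the 32 members, 22 were lowest in the PyMT Ets2-present array, 6 in PyMT Ets2-null, 4 in normal Ets2-null and 0 in normal Ets2-present, whereas 22.5% of all kept genes were lowest in PyMT Ets2-present.

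**Figure D1:**
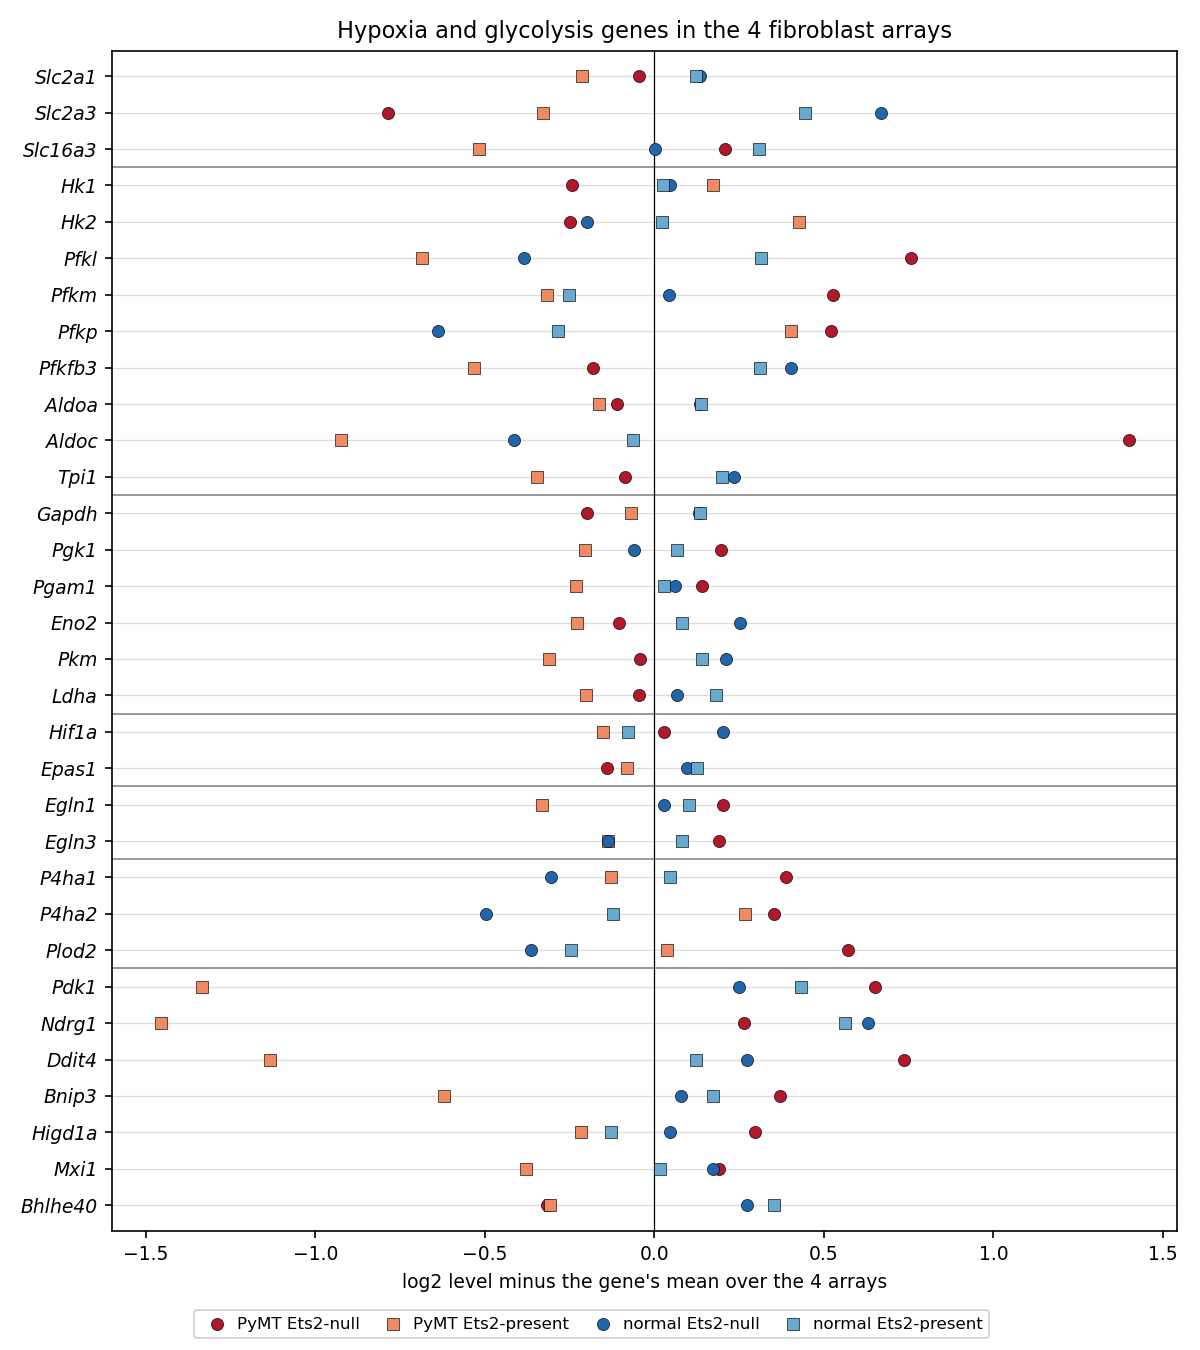
Log2 level of each of the 32 measured genes in each array (horizontal, minus the gene's own mean over the 4 arrays), 1 symbol per array, with genes grouped by role between the grey lines. The PyMT Ets2-present square is farthest left in 22 of the 32 genes, by more than 1 unit in Pdk1, Ndrg1 and Ddit4.

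HIF binds DNA at a short core, and promoters of some members that were higher in PyMT Ets2-null than in PyMT Ets2-present cells are shown. They let a reader see where that core occurs. No promoter sequence was available for Ndrg1. The sequences are RefSeq promoters of build GRCm38.p6, from 250 bases before to 50 bases after the start of the gene, written 5′ to 3′ on the strand of the gene. Capitals mark every match to ACGTG or GCGTG on either strand, so that the opposite strand appears as CACGT or CACGC, and CACGTG is a match on both strands. Pdk1 lies at chr2:71872974-71873273 on the plus strand, Ddit4 at chr10:59951721-59952020 on the minus strand, Bnip3 at chr7:138909457-138909756 on the minus strand, and Pfkl at chr10:78009758-78010057 on the minus strand. Hk2, at chr6:82774405-82774704 on the minus strand, is shown as a member that was not higher in PyMT Ets2-null cells. The other genes shown have a single window, and Pdk1 has another with 0 matches, which is not printed.
Pdk1: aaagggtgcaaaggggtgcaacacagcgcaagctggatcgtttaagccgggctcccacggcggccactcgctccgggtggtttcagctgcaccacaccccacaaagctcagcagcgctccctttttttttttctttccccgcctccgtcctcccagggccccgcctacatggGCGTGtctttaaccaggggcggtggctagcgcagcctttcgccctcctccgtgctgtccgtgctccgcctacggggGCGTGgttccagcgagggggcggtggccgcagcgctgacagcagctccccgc
Ddit4: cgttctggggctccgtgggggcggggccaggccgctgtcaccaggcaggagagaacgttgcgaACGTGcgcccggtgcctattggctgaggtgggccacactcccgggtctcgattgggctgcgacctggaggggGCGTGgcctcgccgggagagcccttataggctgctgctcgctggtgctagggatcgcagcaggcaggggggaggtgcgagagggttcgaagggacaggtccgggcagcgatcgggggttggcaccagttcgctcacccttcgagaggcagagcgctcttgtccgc
Bnip3: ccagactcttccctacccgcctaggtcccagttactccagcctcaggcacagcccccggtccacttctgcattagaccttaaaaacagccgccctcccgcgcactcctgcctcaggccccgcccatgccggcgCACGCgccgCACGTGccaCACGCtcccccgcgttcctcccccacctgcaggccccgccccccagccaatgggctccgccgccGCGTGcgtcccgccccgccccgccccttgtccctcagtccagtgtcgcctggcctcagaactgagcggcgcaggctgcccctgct
Pfkl: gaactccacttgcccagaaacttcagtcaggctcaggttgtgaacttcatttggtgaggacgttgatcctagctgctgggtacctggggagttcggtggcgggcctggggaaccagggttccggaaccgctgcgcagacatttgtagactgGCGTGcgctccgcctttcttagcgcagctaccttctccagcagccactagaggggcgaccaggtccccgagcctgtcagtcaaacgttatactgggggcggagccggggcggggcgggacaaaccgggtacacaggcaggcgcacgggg
Hk2: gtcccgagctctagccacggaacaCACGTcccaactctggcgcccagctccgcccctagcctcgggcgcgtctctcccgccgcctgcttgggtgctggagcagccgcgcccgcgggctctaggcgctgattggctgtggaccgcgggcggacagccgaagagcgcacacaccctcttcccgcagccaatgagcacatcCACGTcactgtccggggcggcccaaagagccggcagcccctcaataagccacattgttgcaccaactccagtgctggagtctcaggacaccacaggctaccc
The Pdk1 window held 2 matches, with first bases at -78 and -2 from the start, and that of Ddit4 held 2, at -187 and -115. Bnip3 held 5 matches between -117 and -35, of which 2 are the strands of a single CACGTG, Pfkl held 1 at -99, and Hk2 held 2, at -226 and -52. The table gave windows for 28 of the 33 members, and 25 of these 28 genes (89.3%) had at least 1 match in at least 1 window. The share was 70.3% of the 6370 kept genes with a window and 46.7% of all 27025 genes in the table. Per window, since members had 41 windows in 28 genes, it was 78.0% in members and 63.7% in kept genes. ACGTG alone was found in 78.6% of the members and 30.6% of the kept genes, and GCGTG in 60.7% and 58.3%. Per window these shares were 63.4% and 26.3% for ACGTG, and 48.8% and 51.8% for GCGTG. Genes known as HIF targets were put on the list by name, so a higher share in members says nothing about these arrays. The GC content of a window was 63.3% in members and 61.0% in kept genes at the median, and windows of a gene can share bases. A match is a description of letters only, and Hk2 has them too.

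Among the HIF targets outside glycolysis, the largest differences were those of Pdk1, Ddit4 and Ndrg1. Pdk1, the kinase that shuts off pyruvate dehydrogenase and so keeps pyruvate out of the citric acid cycle, had a log2 level of 9.76 in PyMT Ets2-null, 7.77 in PyMT Ets2-present, 9.35 in normal Ets2-null and 9.54 in normal Ets2-present fibroblasts. A single array was low, and the other 3 lay at most 0.40 apart. Pdk1 was thus 3.96-fold higher in PyMT Ets2-null than in PyMT Ets2-present cells and 3.41-fold lower in PyMT Ets2-present than in normal Ets2-present cells. Its second probe set gave 1.87 for the Ets2 difference in PyMT cells, against 1.99 on the first.

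Ddit4, an inhibitor of the growth kinase mTOR that is induced by hypoxia and by other stresses, read 12.06 in PyMT Ets2-null, 10.19 in PyMT Ets2-present, 11.60 in normal Ets2-null and 11.45 in normal Ets2-present cells. It was 3.65-fold higher in PyMT Ets2-null than in PyMT Ets2-present cells, and again the PyMT Ets2-present array was alone at the low end. Ndrg1, a cytoplasmic protein of hypoxic and differentiating cells, read 8.63 in PyMT Ets2-null, 6.91 in PyMT Ets2-present, 9.00 in normal Ets2-null and 8.93 in normal Ets2-present cells. Its Ets2 difference in PyMT fibroblasts was 1.72, and its PyMT difference in Ets2-present fibroblasts -2.02, the lowest of all members. The 4 probe sets of Ndrg1 above 4.63 gave Ets2 differences from 0.18 to 2.96, so that its size depends on the probe set while its sign did not among these. The dimmest probe set, below that level, gave -0.18. The dimmest of the 4 above it read 4.53 in PyMT Ets2-null and 4.35 in PyMT Ets2-present cells. In normal cells it read 6.37 (Ets2-null) and 5.69 (Ets2-present), so on that probe set both PyMT arrays were low.

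Bnip3, a mitochondrial protein that promotes mitophagy and cell death in hypoxia, lay just under the 2-fold line. It read 11.24 in PyMT Ets2-null, 10.24 in PyMT Ets2-present, 10.95 in normal Ets2-null and 11.04 in normal Ets2-present cells, a 1.99-fold difference within PyMT cells. With arrays centred on their medians it was past the line, at 1.10 on the log2 scale. Mxi1, an antagonist of Myc, had an Ets2 difference of 0.57 in PyMT cells, and Higd1a, a survival factor of the inner mitochondrial membrane, one of 0.51. The 3 probe sets of Higd1a ranged from 0.02 to 0.75. Bhlhe40, a repressor of transcription that is also part of the circadian clock, did not follow the group. It read 9.11 in PyMT Ets2-null, 9.12 in PyMT Ets2-present, 9.70 in normal Ets2-null and 9.78 in normal Ets2-present cells, and so differed between PyMT and normal cells and hardly with Ets2.

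The HIF subunits and the oxygen sensors showed smaller differences. Hif1a, the oxygen-regulated alpha subunit, read 11.18 in PyMT Ets2-null, 11.00 in PyMT Ets2-present, 11.35 in normal Ets2-null and 11.07 in normal Ets2-present cells, with Ets2 differences of 0.18 in PyMT and 0.28 in normal cells. Its 4 probe sets did not give the same size, from 0.12 to 0.99 in PyMT cells, nor the same sign in normal cells, from -1.79 to 0.28. The second brightest read 11.22 in PyMT Ets2-null, 10.23 in PyMT Ets2-present, 10.60 in normal Ets2-null and 10.80 in normal Ets2-present cells, and so had the low PyMT Ets2-present array that the brightest has by less. HIF alpha is controlled mainly through protein stability, which an array does not measure. Epas1, the other alpha subunit, was between 2.90 and 3.16 in the 4 arrays, all below 4.63, and gives no usable difference.

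Egln1, the main oxygen-sensing prolyl hydroxylase, read 10.43 in PyMT Ets2-null, 9.90 in PyMT Ets2-present, 10.26 in normal Ets2-null and 10.33 in normal Ets2-present cells. Its 2 probe sets gave Ets2 differences of 0.53 and 0.52 in PyMT fibroblasts. Egln3, a prolyl hydroxylase that is itself a HIF target, had Ets2 differences of 0.33 in PyMT and -0.22 in normal cells, and its other probe set gave 0.22 and -1.02. On its brightest probe set Egln1 was lowest in PyMT Ets2-present cells, whereas Egln3 was as low in normal Ets2-null as in PyMT Ets2-present cells.

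Enzymes that modify collagen were high in both PyMT arrays (P4ha2 and Plod2) or in PyMT Ets2-null cells only (P4ha1). P4ha1 and P4ha2 are catalytic subunits of collagen prolyl hydroxylase, which stabilizes the triple helix, and Plod2 is a lysyl hydroxylase that directs collagen crosslinks. P4ha2 read 9.76 in PyMT Ets2-null, 9.68 in PyMT Ets2-present, 8.91 in normal Ets2-null and 9.29 in normal Ets2-present cells. Plod2 read 9.72 in PyMT Ets2-null, 9.19 in PyMT Ets2-present, 8.79 in normal Ets2-null and 8.91 in normal Ets2-present cells. In both genes the PyMT arrays lay above the normal arrays, by 0.85 (P4ha2) and 0.93 (Plod2) among Ets2-null cells and by 0.39 (P4ha2) and 0.28 (Plod2) among Ets2-present cells. The other probe set of Plod2 gave 1.46 and 0.60, past the 2-fold line among Ets2-null cells. P4ha1 read 10.91 in PyMT Ets2-null, 10.39 in PyMT Ets2-present, 10.22 in normal Ets2-null and 10.57 in normal Ets2-present cells, so that here the PyMT Ets2-null array stood highest and PyMT Ets2-present below normal Ets2-present. Its second probe set gave an Ets2 difference of 1.11 in PyMT cells, against 0.52 on the first.

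Glucose enters fibroblasts through facilitative transporters. Slc2a1 (GLUT1), the basal transporter of most cells, read 12.55 in PyMT Ets2-null, 12.38 in PyMT Ets2-present, 12.73 in normal Ets2-null and 12.72 in normal Ets2-present cells, and its 3 probe sets gave Ets2 differences from 0.07 to 0.17 in PyMT cells. Slc2a3 (GLUT3), a transporter of high affinity, went the other way. It read 7.28 in PyMT Ets2-null, 7.73 in PyMT Ets2-present, 8.73 in normal Ets2-null and 8.51 in normal Ets2-present cells, so both PyMT arrays lay below both normal arrays. Its PyMT difference among Ets2-null cells was -1.45, and it was the only member at least 2-fold lower in that comparison. The second of its probe sets above 4.63 gave -0.90, short of the line. Slc16a3, the transporter that exports lactate, read 7.93 in PyMT Ets2-null, 7.21 in PyMT Ets2-present, 7.73 in normal Ets2-null and 8.03 in normal Ets2-present cells, with PyMT Ets2-present lowest, as for Pdk1.

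Hexokinases trap glucose in the cell by phosphorylation. Hk2, the inducible form bound to mitochondria, had the lowest Ets2 difference of all members in PyMT cells, -0.68. It read 9.90 in PyMT Ets2-null, 10.58 in PyMT Ets2-present, 9.95 in normal Ets2-null and 10.18 in normal Ets2-present cells, so that PyMT Ets2-present was the high array here. Hk1, the housekeeping form, read 6.71 in PyMT Ets2-null, 7.12 in PyMT Ets2-present, 7.00 in normal Ets2-null and 6.97 in normal Ets2-present cells, in the same order within PyMT cells. With the mean over its 2 probe sets the Ets2 difference of Hk1 in PyMT cells was -1.02, past the 2-fold line, but the dimmer probe set had a mean below 4.63.

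Phosphofructokinase, the committed step of glycolysis, is built from liver, muscle and platelet subunits, and the 3 subunit genes had 3 different patterns. The liver form Pfkl read 8.52 in PyMT Ets2-null, 7.08 in PyMT Ets2-present, 7.38 in normal Ets2-null and 8.08 in normal Ets2-present cells. It was 2.72-fold higher in PyMT Ets2-null than in PyMT Ets2-present cells, and in normal cells it was lower without Ets2 (-0.70), the lowest Ets2 difference of any member there. Its second probe set gave 1.90 in PyMT and 0.08 in normal cells, so the difference in PyMT cells held on both and the one in normal cells did not. The muscle form Pfkm was highest in PyMT Ets2-null cells, at 7.36, against 6.52 in PyMT Ets2-present, 6.88 in normal Ets2-null and 6.59 in normal Ets2-present cells. The platelet form Pfkp followed the oncogene instead, at 9.47 in PyMT Ets2-null, 9.35 in PyMT Ets2-present, 8.31 in normal Ets2-null and 8.67 in normal Ets2-present cells. Pfkp was 2.23-fold higher in PyMT than in normal fibroblasts among Ets2-null cells, and its other probe set, below 4.63 on average, gave 0.56. Pfkfb3, which makes the activator of phosphofructokinase, was lower in both PyMT arrays, at 8.50 in PyMT Ets2-null and 8.15 in PyMT Ets2-present, than in the normal arrays, at 9.08 in Ets2-null and 8.99 in Ets2-present cells.

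Aldolase cleaves the sugar into trioses. Aldoa, the common form, read 11.70 in PyMT Ets2-null, 11.65 in PyMT Ets2-present, 11.94 in normal Ets2-null and 11.95 in normal Ets2-present cells, and its 4 probe sets gave Ets2 differences between -0.09 and 0.12 in PyMT cells. Aldoc, the brain form, read 5.87 in PyMT Ets2-null, 3.55 in PyMT Ets2-present, 4.06 in normal Ets2-null and 4.41 in normal Ets2-present cells. Its Ets2 difference of 2.32 in PyMT cells was the highest of any member but rests on a weak signal, since only the PyMT Ets2-null array was above 4.63. With values raised to 4.63 it was 1.24, and the other probe set, with all arrays below that level, gave -0.23. Tpi1, which interconverts the trioses, read 10.85 in PyMT Ets2-null, 10.59 in PyMT Ets2-present, 11.18 in normal Ets2-null and 11.14 in normal Ets2-present cells.

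The enzymes from triose to lactate were close to level. Gapdh, which oxidizes the triose, read 12.49 in PyMT Ets2-null, 12.62 in PyMT Ets2-present, 12.82 in normal Ets2-null and 12.83 in normal Ets2-present cells. It was measured only by the 3 manufacturer's control probe sets along the transcript, and the 3′ end exceeded the 5′ end by 0.86 in PyMT Ets2-null, 0.997 in PyMT Ets2-present, 0.79 in normal Ets2-null and 0.76 in normal Ets2-present cells. The 3′ and 5′ ends of Actb were 2.02, 2.14, 2.38 and 1.95 apart in the same order, and the part of RNA integrity in the differences was not tested. Pgk1, the first step of glycolysis to yield ATP and a standard HIF target, read 12.45 in PyMT Ets2-null, 12.05 in PyMT Ets2-present, 12.20 in normal Ets2-null and 12.32 in normal Ets2-present cells. Its 3 probe sets gave Ets2 differences from 0.40 to 0.53 in PyMT and were negative in normal cells.

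Pgam1, the mutase of the lower pathway, had an Ets2 difference of 0.37 in PyMT cells, Pkm (pyruvate kinase) one of 0.27, Ldha (lactate dehydrogenase) one of 0.16 and Eno2 (the neuronal enolase) one of 0.12. These 4 enzymes were each lowest in PyMT Ets2-present cells, at 11.83 (Pgam1), 10.84 (Pkm), 12.13 (Ldha) and 6.78 (Eno2). Normal Ets2-present cells had 12.09 (Pgam1), 11.30 (Pkm), 12.52 (Ldha) and 7.09 (Eno2). The array cannot separate the M1 and M2 splice forms of Pkm here, since a single probe set was used.

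**Figure D2:**
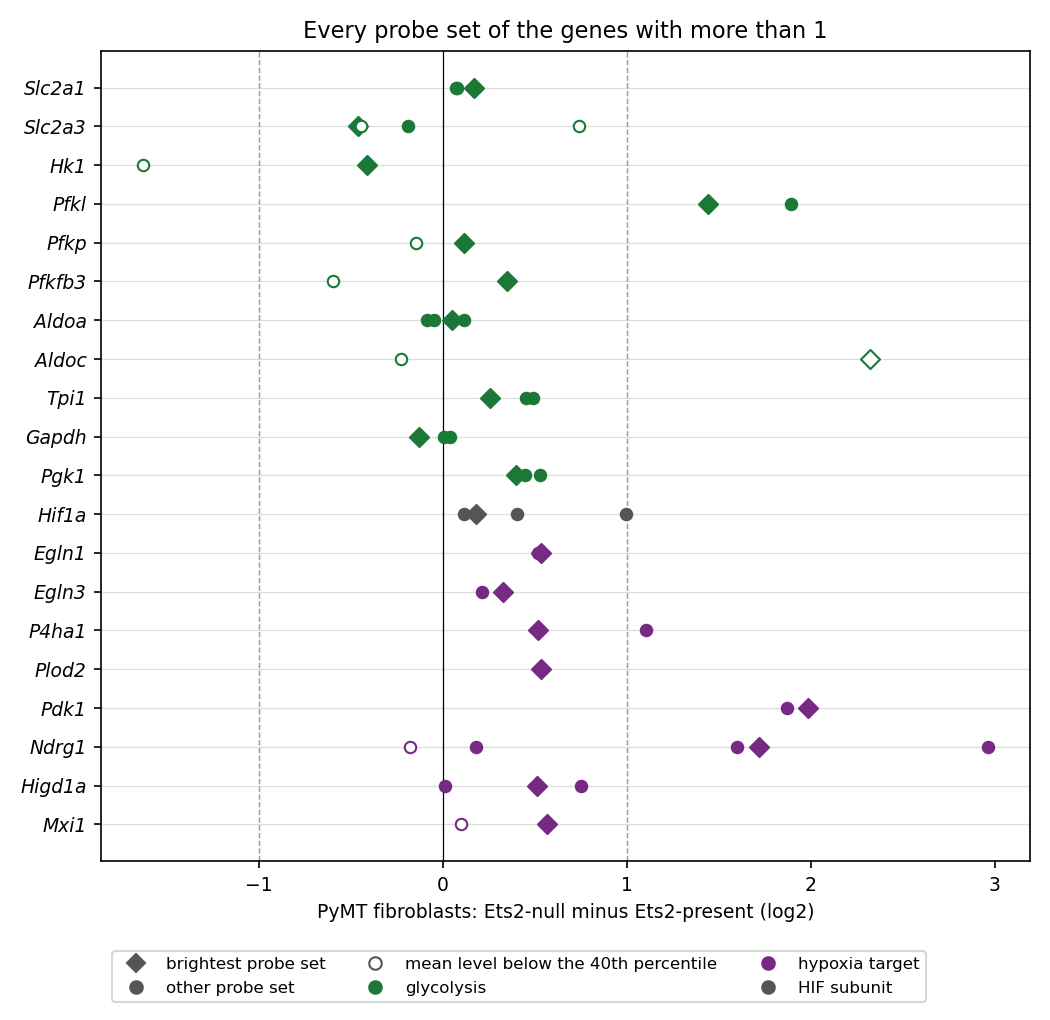
Ets2 difference in PyMT fibroblasts (Ets2-null minus Ets2-present, log2) for every probe set of the 20 members that have more than 1; diamonds are the brightest probe set, open symbols have a mean level below 4.63, and dashed lines mark 2-fold. Both probe sets of Pdk1 and of Pfkl lie beyond the 2-fold line, while those of Ndrg1 above 4.63 run from 0.18 to 2.96.

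For Ets2 loss in PyMT fibroblasts, 26 of the 32 members were higher in Ets2-null than in Ets2-present cells, where 49.8% of all kept genes were. Of the members 5 were at least 2-fold higher and 0 at least 2-fold lower, beside 5.02% and 7.23% of all kept genes. Of all kept genes 2-fold apart, 40.9% were higher, and 51.4% with arrays centred on their medians, a step that raised every Ets2 difference in PyMT cells by 0.10 and turned the sign of Bhlhe40 and Epas1 only. The median difference was 0.34 over the members and 0.00 over all kept genes. The 12 HIF targets outside glycolysis had a median of 0.53, with 11 higher, and the 18 glycolysis genes one of 0.21, with 14 higher. From here on HIF targets means these 12 only. The glycolysis genes hold HIF targets too, such as Pgk1, so the 2 classes do not separate HIF targets from other genes. Aldoc is among the 5 members 2-fold higher. Among genes of mean level at or above 6.78, the 60th percentile, as for 30 of the 32 members, 6.55% of genes were 2-fold apart in either direction, against 12.3% of all kept genes.

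For Ets2 loss in normal fibroblasts, 14 of the 32 members were higher in Ets2-null than in Ets2-present cells, beside 46.9% of all kept genes. The number at least 2-fold apart was 0 in both directions, beside 2.08% (higher) and 1.69% (lower) of all kept genes. Member differences ran from -0.70 (Pfkl) to 0.29 (Pfkm), with a median of -0.02 beside -0.02 over all kept genes. HIF targets had a median of -0.09 and glycolysis genes one of 0.01. On other probe sets Hif1a (-1.79, on the dimmest of its 4) and Egln3 (-1.02) passed the 2-fold line in this comparison.

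**Figure D3:**
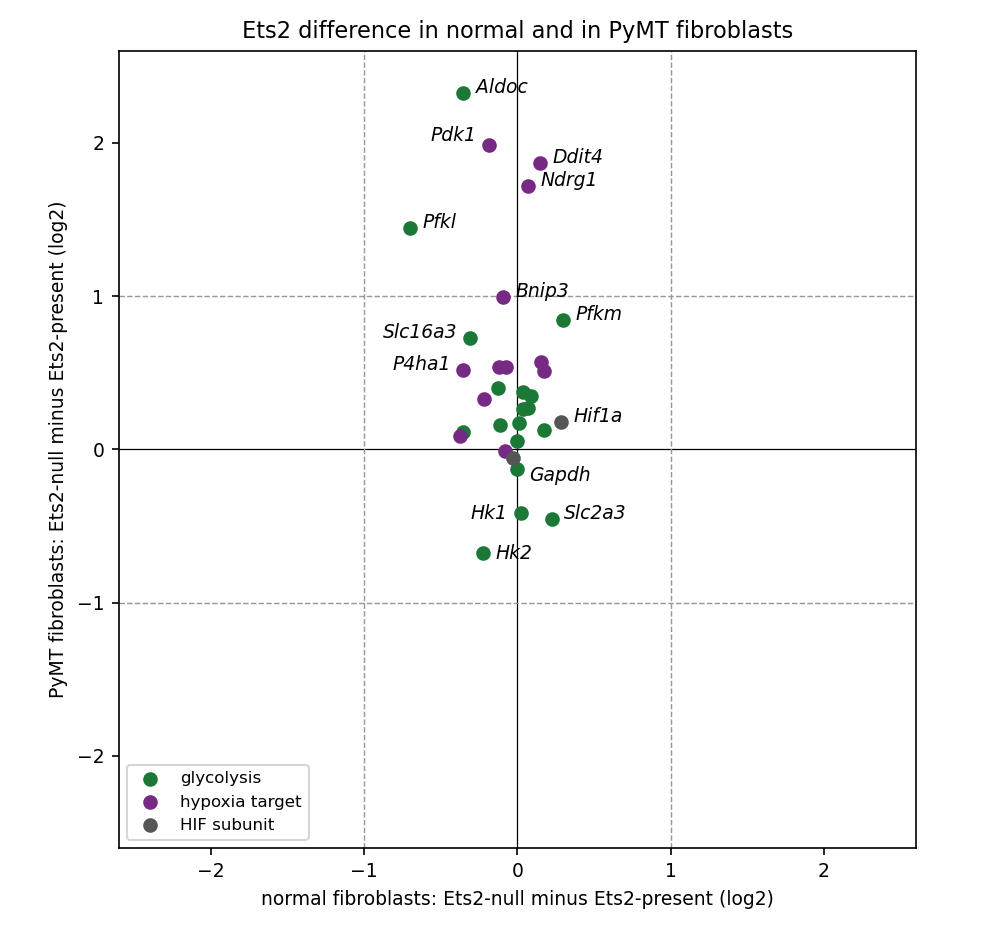
Each point is a gene of the 32, placed by how far (log2) Ets2-null cells lay above Ets2-present cells, the vertical axis being PyMT and the horizontal axis normal fibroblasts, with colour for class; dashed lines mark 2-fold. Points spread vertically from -0.68 (Hk2) to 2.32 (Aldoc) and horizontally only from -0.70 (Pfkl) to 0.29 (Pfkm).

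These Ets2 differences share no array, and subtracting the normal from the PyMT one compares them directly. The result was above 0 in 25 of the 32 members, beside 51.9% of all kept genes, with a median of 0.38 over the members and 0.03 over all kept genes. It was 1 or more in 7 members, beside 7.44% of all kept genes: Pdk1 2.17, Pfkl 2.14, Ddit4 1.72, Ndrg1 1.65, Bnip3 1.08, Slc16a3 1.03 and Aldoc. Aldoc, which is not among the kept genes and had 3 of its 4 arrays below 4.63, gave 2.67, but 1.24 with low values raised and 0.19 on its other probe set. It was -1 or less in 0 members, beside 10.2% of all kept genes, and Slc2a3 was lowest at -0.68. On their brightest probe sets all 12 HIF targets outside glycolysis were above 0, with a median of 0.63, and 13 of the 18 glycolysis genes, with a median of 0.24. The sign did not hold on every probe set above 4.63. Those of Ndrg1 ran from -0.50 to 2.78 and those of Higd1a from -0.007 to 0.91. The subtraction carries the noise of 4 arrays and has no test.

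The PyMT comparison in Ets2-present fibroblasts uses the PyMT Ets2-present array again, with the opposite sign, so its values stand beside those above and do not add to them. Here 5 of the 32 members were higher in PyMT than in normal fibroblasts, Hk1, Hk2, Pfkp, P4ha2 and Plod2, beside 49.2% of all kept genes. At least 2-fold lower were 4, Ndrg1 -2.02, Pdk1 -1.77, Ddit4 -1.26 and Pfkl -1, and 0 were 2-fold higher, beside 5.52% lower and 4.26% higher among all kept genes. Pfkl sat on the line and fell short of it under quantile normalization, at -0.96. The median was -0.32 over the members, -0.41 over HIF targets and -0.32 over glycolysis genes, and -0.01 over all kept genes.

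In Ets2-null fibroblasts, 17 of the 32 members were higher in PyMT than in normal cells, beside 50.9% of all kept genes. At least 2-fold higher were Aldoc 1.81, Pfkp 1.16 and Pfkl 1.14, beside 6.93% of all kept genes, and at least 2-fold lower was Slc2a3, beside 10.6%. The median was 0.05 over the members and 0.02 over all kept genes. Here the medians of the classes differed in sign. Of the 12 HIF targets outside glycolysis 10 were higher, with a median of 0.31. Of the 18 glycolysis genes, some of them HIF targets too, 11 were lower, with a median of -0.15. On their brightest probe sets Pdk1 (0.40), Ndrg1 (-0.37), Ddit4 (0.46) and Bnip3 (0.29) were not 2-fold apart here. The 4 probe sets of Ndrg1 above 4.63 ran from -1.84 to 0.05, so the dimmest of them passed the 2-fold line. The adipocyte marker sum, mainly Fabp4, and Lum given above differed between the same arrays, and their part was not tested.

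**Figure D4:**
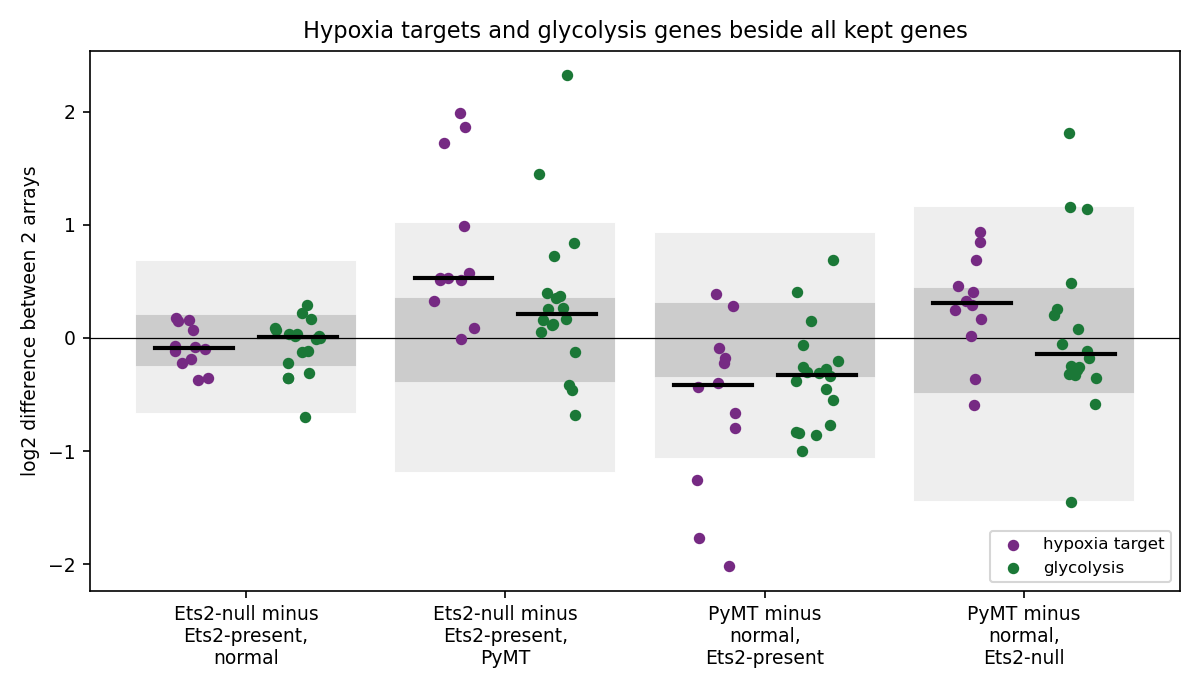
Log2 difference between 2 arrays (vertical) of the 12 HIF targets outside glycolysis and the 18 glycolysis genes, in the 4 comparisons. There is 1 point per gene and a bar at the median. Dark grey boxes span the quartiles and light grey boxes the 5th to 95th percentile of the 7796 kept genes. Medians of the HIF targets are -0.09, 0.53, -0.41 and 0.31 from left to right, and those of the glycolysis genes 0.01, 0.21, -0.32 and -0.15.

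Further genes of the pathways, none of them in the list above, were followed in the same way. Of 28 genes next to glycolysis 19 were measured, and in PyMT cells 3 were at least 2-fold higher without Ets2 and 0 lower, while in normal cells 0 were higher and 1 lower. Of 36 further hypoxia genes 29 were measured, with 3 higher and 1 lower in PyMT cells and 2 higher and 1 lower in normal cells. Over all kept genes the shares were 5.02% higher and 7.23% lower in PyMT cells and 2.08% higher and 1.69% lower in normal cells, and with lists this short counts of 1 or 2 are near them. Their medians for Ets2 loss in PyMT cells were 0.37 (next to glycolysis) and 0.13 (further hypoxia genes). Of the 29 hypoxia genes 16 were higher and 13 lower without Ets2, near the 49.8% higher among all kept genes. Of the 19 genes next to glycolysis 14 were higher and 5 lower. The hypoxia-inducible lipase inhibitor Angptl4 read 8.05 in PyMT Ets2-null, 5.88 in PyMT Ets2-present, 8.15 in normal Ets2-null and 7.81 in normal Ets2-present cells, with a single low array. The mitochondrial HIF target Fam162a read 11.27 in PyMT Ets2-null, 9.96 in PyMT Ets2-present, 11.00 in normal Ets2-null and 11.28 in normal Ets2-present cells, with the same order of groups as Bnip3 within PyMT cells. Adm, the vasodilator adrenomedullin, read 9.35 in PyMT Ets2-null, 7.50 in PyMT Ets2-present, 7.75 in normal Ets2-null and 8.68 in normal Ets2-present cells.

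Plaur, the urokinase receptor, was -1.20 in PyMT cells, the only one of the further genes at least 2-fold lower there. Edn1, the vasoconstrictor endothelin, was -2.99 in normal cells, where its Ets2-null array at 2.83 was below 4.63, and 0.31 in PyMT cells. Pdk2 (1.55), Gpd1 (1.29) and Pklr (1.10) were 2-fold higher without Ets2 in PyMT cells. They are a pyruvate dehydrogenase kinase, a glycerol phosphate dehydrogenase and the liver pyruvate kinase. Each was lowest in PyMT Ets2-present cells, as Angptl4, Fam162a and Adm were. All of these were named for being 2-fold apart, a choice that favours a low PyMT Ets2-present array, so this order adds no support. For Pdk2 and Gpd1 the mean over the arrays was below 4.63. Vegfa, the angiogenic HIF target, was named after its values were seen; it read 10.36 in PyMT Ets2-null, 9.66 in PyMT Ets2-present, 9.43 in normal Ets2-null and 9.41 in normal Ets2-present cells, with both PyMT arrays above the normal ones.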

How the data were processed

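The deposited table holds log2 levels that the authors computed by RMA (version not given in the sources used here) from Affymetrix mouse arrays, 4 arrays in 4 groups. RMA subtracts background, makes arrays comparable and shrinks differences of dim probe sets. Scanner files were not used here, so no detection calls were made, and the number of arrays limits the precision. The platform annotation gave 1 gene for 20393 of 22690 probe sets, several for 691 and none for 1606, and only the first were used.

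Differences between arrays were taken in Python 3.11.15 with pandas 2.3.3. With 1 array per group no test was run and no paired analysis was possible. A gene was called at 2-fold. The arithmetic of the calls was checked on simulated data without noise, which gives no error rate. Alternatives were the probe set chosen, array normalization (limma 3.58.1), control probe sets, and low values. Agreement between probe sets stood in for technical error: over 2984 genes the SD of the disagreement between the 2 brightest was 0.60 for the Ets2 difference in PyMT and 0.42 in normal cells. All members were named. Of the further genes 2-fold apart for Ets2, the 8 with the largest difference were described, and Vegfa was added outside this rule. Those not described were 2-fold apart in normal cells only: Pdk4 (-1.09), Arnt2 (1.04) and Pgf (1.04). Members and lists were chosen with earlier results of these data known, and the count of lowest arrays, the 60th percentile background and the promoter motifs were added after values were seen.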

Additional observations from a re-analysis of the deposited data

Results flagged for a closer look

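In 5 genes the Ets2 difference was positive in PyMT and negative in normal fibroblasts, and the PyMT value minus the normal value was 1 or more: Pdk1 2.17, Pfkl 2.14, Bnip3 1.08, Slc16a3 1.03 and Aldoc 2.67. The Aldoc value is taken against arrays below 4.63: it was 1.24 with low values raised, where its difference in normal cells was 0, and it was 1.44 with the mean over probe sets and 0.19 on the second probe set. Each value rests on 4 arrays, and the difference was not tested. In Pdk1, Bnip3 and Slc16a3 the difference in normal cells was small (-0.18, -0.09 and -0.31). For Pdk1 and Pfkl the Ets2 difference in PyMT cells was positive on both probe sets, while that in normal cells was positive on the other probe set (0.36 and 0.08).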

How the results depend on the processing

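No member difference of 2-fold or more changed sign under another normalization, with low values raised, or without control probe sets. With the second brightest probe set, which is often dim, Aldoc was -0.23 for Ets2 loss in PyMT cells and -0.15 for PyMT in Ets2-null cells, against 2.32 and 1.81. In that setting the median for Ets2 loss in PyMT cells was 0.19 over all members and 0.10 over glycolysis genes. The median of the subtraction was 0.13 over glycolysis genes and 1.12 over HIF targets (0.88 with the mean over probe sets), and that of PyMT in Ets2-present cells was -0.59 over HIF targets. Members at least 2-fold lower were then 1 for Ets2 loss in normal cells, 1 in PyMT cells, 1 in the subtraction, and 0 for PyMT in Ets2-null cells. The mean over probe sets gave 1 for Ets2 loss in PyMT cells and 0 for PyMT in Ets2-null cells. Centring arrays on their median raised the medians for Ets2 loss in PyMT cells to 0.44 (all members), 0.64 (HIF targets) and 0.32 (glycolysis). The count of members lowest in PyMT Ets2-present cells was 19 to 24. The share of genes 2-fold apart for Ets2 in normal cells was 5.81% with no filter, against 3.77% of kept genes, and with the stricter level at the 60th percentile, chosen after seeing the data, it was 1.21% there and 6.55% in PyMT cells. With 1 array per group no library can be left out, and values near or below 4.63 have little order.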
